A study of Mus musculus with 6 samples.

Results

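Ribosome biogenesis genes and Myc were followed in OT-I CD8 T cells, as 46 named genes among the 49671 genes of the count tables. The members are chosen by name: nucleolar, RNA polymerase I and ribosome assembly genes together with Myc, Odc1 and Srm. Every one of the 46 was found in the tables by its Ensembl identifier, and all 46 were among the 13996 genes that passed the filter on low counts. OT-I cells carry a transgenic T cell receptor that recognises the ovalbumin peptide SIINFEKL. All libraries came from OT-I splenocyte cultures labelled as naive primary CD8 T cells and were taken after 48 h with that peptide. The groups were BiTS (2 libraries), BiTS(mut) (2 libraries) and an isotype control (2 libraries). BiTS is a bispecific T cell silencer that brings LAG-3 close to the T cell receptor, and the labels do not say what was changed in BiTS(mut). The series asks how activated OT-I cells differ in transcription between these treatments. The labels do not state whether the libraries of a group came from separate mice or cultures, and the tests therefore speak only to the spread among the libraries at hand.

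The titles number the libraries from 1 to 6. Numbers 4 to 6 (BiTS replicate 2, BiTS(mut) replicate 2 and isotype replicate 4) are called the second set here, and numbers 1 to 3 (replicate 1 of each treatment) the first set. The labels do not call a set a batch. Between 10813123 and 15239077 gene counts stood in a library. Each set holds 1 library of every treatment, and the leading principal component of all genes, carrying 65.4% of their variance, split the libraries by set. The 10 T cell markers summed to between 1850.2 and 2544.6 CPM (counts per 1000000 gene counts, scaled by TMM). The dendritic cell markers, 17 of which were tested, summed to between 1515.5 and 3024.2 CPM, and none of them was at 0 in every library. Ccr7 (434 to 774 CPM) and Cd74 (308 to 839 CPM) had the highest values of this list, while Flt3 had 3.31 to 23.2 CPM. Whether each marker's RNA came from dendritic cells was not tested, and the sums of these lists do not compare amounts of RNA between cell types. How much RNA of other cells each library held was not measured otherwise. Neutrophil, erythroid and NK cell markers each summed to under 1 CPM in every library. In such bulk samples, fewer cells of a type and less RNA per cell cannot be told apart.

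A cell that prepares to divide must first make ribosomes. In the nucleolus, RNA polymerase I transcribes the ribosomal RNA precursor, small nucleolar ribonucleoproteins (snoRNPs) modify it, and assembly factors cut it, fold it and load it with ribosomal proteins to form the small and the large subunit. The transcription factor MYC, bound to DNA with its partner MAX at E-boxes, drives many of these genes as well as the polyamine enzymes ODC1 and SRM, and it is induced when a T cell receptor is engaged. MXD proteins and MXI1 compete for MAX and act against MYC.

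The E-box CACGTG is the sequence best known to be bound by MYC and MAX, so the promoters of members with and without it are shown. RefSeq promoter windows (build GRCm38.p6, from 250 bases before to 50 after an annotated start) matched 40 of the 46 members. These 40 had 49 windows, since Ubtf has 6, Wdr12 has 3, and Noc2l and Rrp1b have 2 each. Bop1, Fbl, Myc, Npm1, Srm and Rrp12 were not matched. CACGTG was searched as these 6 letters. It reads the same on both strands, so 1 search covers both, and its copies did not overlap. At least 1 window held the letters for 10 of 40 members (25%), for 22.6% of 124 other genes of the pathway, for 11.6% of 9916 genes that passed the filter and for 8.09% of all 27025 genes. Counted by window, they stood in 10 of 49 windows of members (20.4%), in 21% of 143 windows of other pathway genes, in 9.77% of 12641 windows of genes that passed the filter and in 7.15% of all 32851 windows. The first 4 sequences below hold it, in capitals, and the last 2, from the members with the highest set difference, do not. Nop2, an rRNA methyltransferase of the large subunit (chr6:125131633-125131932, plus strand), holds it 60 bases before the start. Rrn3, the initiation factor that recruits RNA polymerase I (chr16:13780449-13780748, plus strand), holds it 215 and 48 bases before the start. Mybbp1a, a nucleolar Myb-binding protein (chr11:72441077-72441376, plus strand), and Wdr43, a small subunit processing factor (chr17:71615965-71616264, plus strand), hold it after the start. Nop56 (chr2:130274162-130274461) and Nhp2 (chr11:51619523-51619822), both on the plus strand, encode core snoRNP proteins.

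Nop2: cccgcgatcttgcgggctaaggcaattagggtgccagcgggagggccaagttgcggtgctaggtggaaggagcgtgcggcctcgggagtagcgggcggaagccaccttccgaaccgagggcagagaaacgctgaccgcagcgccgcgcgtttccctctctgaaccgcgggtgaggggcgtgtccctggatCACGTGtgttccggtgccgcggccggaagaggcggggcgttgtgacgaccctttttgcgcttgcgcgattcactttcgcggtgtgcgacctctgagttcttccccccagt
Rrn3: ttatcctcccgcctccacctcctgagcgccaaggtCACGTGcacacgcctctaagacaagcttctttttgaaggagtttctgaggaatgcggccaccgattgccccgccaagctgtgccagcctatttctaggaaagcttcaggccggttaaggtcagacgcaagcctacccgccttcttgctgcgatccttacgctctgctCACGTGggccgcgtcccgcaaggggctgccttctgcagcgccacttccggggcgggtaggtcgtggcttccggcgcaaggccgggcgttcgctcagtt
Mybbp1a: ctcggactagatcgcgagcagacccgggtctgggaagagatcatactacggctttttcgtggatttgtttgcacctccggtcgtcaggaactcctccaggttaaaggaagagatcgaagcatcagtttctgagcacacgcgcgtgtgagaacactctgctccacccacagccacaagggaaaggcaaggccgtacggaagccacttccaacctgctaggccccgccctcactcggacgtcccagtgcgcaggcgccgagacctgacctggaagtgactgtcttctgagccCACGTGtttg
Wdr43: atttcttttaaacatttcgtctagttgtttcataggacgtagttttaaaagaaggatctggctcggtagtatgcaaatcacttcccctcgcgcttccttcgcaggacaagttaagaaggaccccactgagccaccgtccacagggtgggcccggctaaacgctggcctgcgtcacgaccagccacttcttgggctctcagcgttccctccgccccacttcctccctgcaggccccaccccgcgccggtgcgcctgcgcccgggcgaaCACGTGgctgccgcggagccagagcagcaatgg
Nop56: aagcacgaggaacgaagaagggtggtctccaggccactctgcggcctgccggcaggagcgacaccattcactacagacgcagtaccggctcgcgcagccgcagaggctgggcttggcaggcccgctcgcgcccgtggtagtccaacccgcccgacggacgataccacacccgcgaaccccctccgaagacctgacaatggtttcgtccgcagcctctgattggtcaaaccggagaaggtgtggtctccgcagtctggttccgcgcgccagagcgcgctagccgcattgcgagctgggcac
Nhp2: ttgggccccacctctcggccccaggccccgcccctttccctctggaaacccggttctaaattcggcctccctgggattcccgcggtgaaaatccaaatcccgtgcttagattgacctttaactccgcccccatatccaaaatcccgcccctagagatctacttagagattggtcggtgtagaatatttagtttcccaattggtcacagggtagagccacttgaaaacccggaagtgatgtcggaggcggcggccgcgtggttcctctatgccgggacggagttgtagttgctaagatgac

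Levels spanned a wide range. Per length, the median over the 6 libraries ran from 3.24 RPKM (CPM divided by exon length in kilobases) for Wdr12, a subunit of the PeBoW complex of large subunit maturation, to 624.4 RPKM for Npm1, the nucleolar chaperone nucleophosmin. Odc1, the rate-limiting enzyme of polyamine synthesis, came next with 150.7 RPKM, Myc had 145 RPKM, and Ncl, the abundant nucleolar protein nucleolin, had 126.8 RPKM. The length is that of all annotated exons of a gene together, 10188 bases for Ncl and 2547 for Odc1. The order by RPKM is therefore not that by counts: Ncl had 1225 to 1478 CPM and Odc1 334 to 560 CPM. Together Npm1 and Ncl made up 35.72% of the CPM of the 46 members. The members took 0.841% and 0.802% of all gene counts in BiTS replicates 2 and 1, 0.915% and 0.76% in BiTS(mut) replicates 2 and 1, and 0.981% and 0.772% in isotype replicates 4 and 1. The 95% Wilson intervals, which cover counting error only, were 0.835% to 0.846% in BiTS replicate 2 and 0.976% to 0.987% in isotype replicate 4, and these did not overlap. Isotype replicate 4 held the highest value of 37 of the 46 members, against 19.68% of all genes tested.

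**Figure D1:**
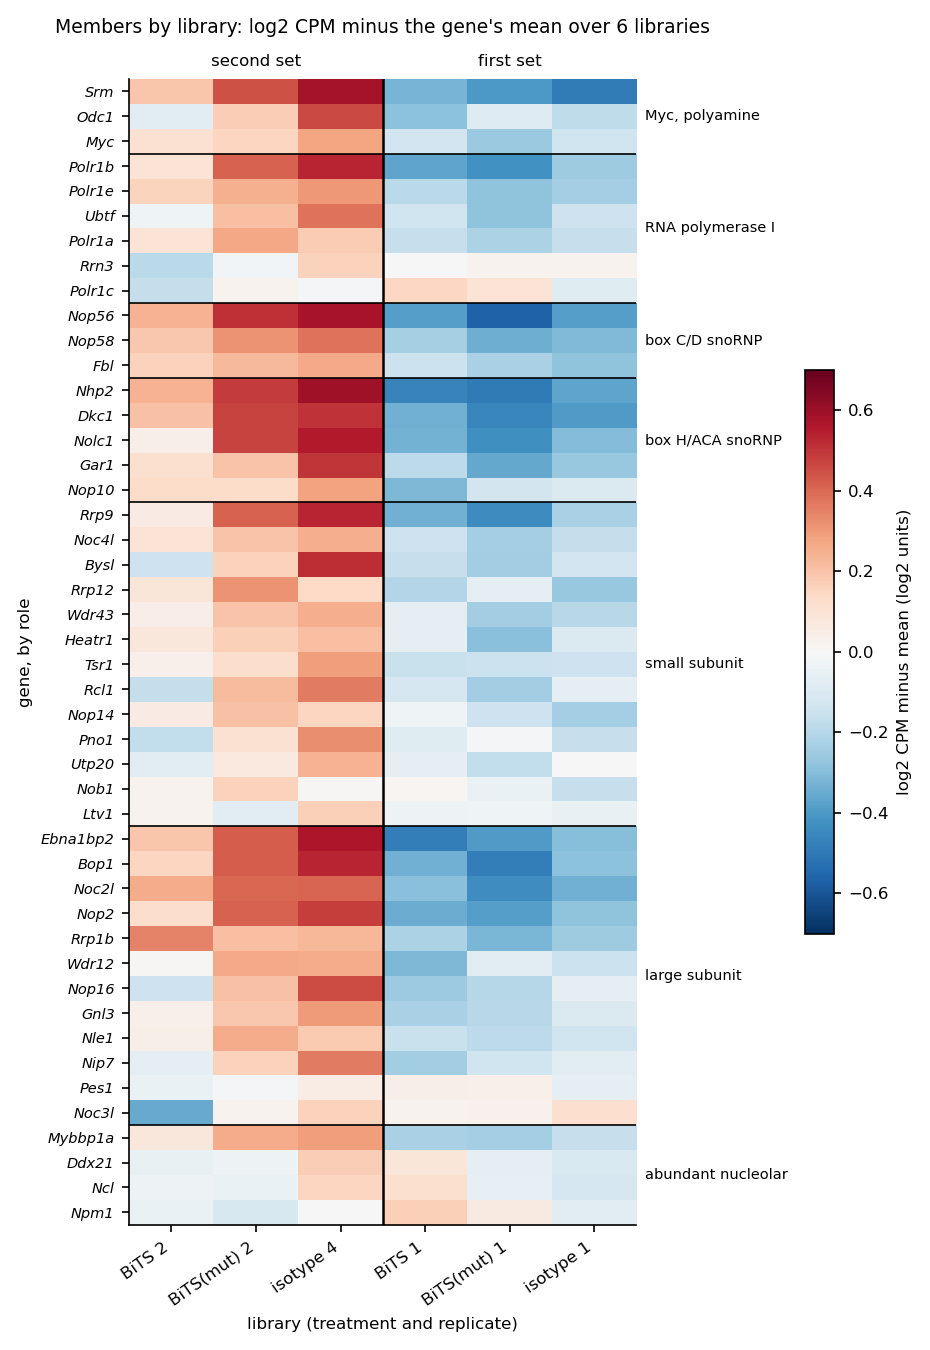
Each row is 1 member, grouped by role, and each column 1 library, with the second set left of the first. Colour gives log2 CPM minus the gene's mean over the 6 libraries, in log2 units. Isotype replicate 4 is the highest library for 37 of 46 members, and BiTS replicate 2 is paler than its set in most rows. Scaled to spike-in transcripts, the median set difference is -0.403 in place of 0.358.

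The comparison of BiTS with isotype asks what the silencer does to these genes in activated cells. Without a term for the set, 0 of 46 members passed edgeR's quasi-likelihood test with Benjamini-Hochberg adjustment, and so did 0 of the 13996 genes tested (0%). At an unadjusted p under 0.05 there were 0 members and 176 genes. DESeq2 and limma-voom also called 0 members without the set. With the set as a block, Nop16 and Odc1 fell and no member rose. That is 4.35% of the members, against 3.4% of all genes in either direction, 1.59% lower and 1.81% higher. A further 13 of the members had an unadjusted p under 0.05, which makes 15 in all, against 2071 genes.

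Nop16, a nucleolar protein of large subunit assembly and a known MYC target (chr13:54584185-54590090 in mm10, minus strand, no exon overlap with another gene), had 46.8 and 43.5 CPM in BiTS replicates 2 and 1, 59.8 and 45.1 CPM in BiTS(mut) replicates 2 and 1 and 71.3 and 49.7 CPM in isotype replicates 4 and 1. Both BiTS values lay below both isotype values, and most of the gap came from the second set. Its log2 fold change in BiTS against isotype was -0.40 ± 0.10 with the block (SE; edgeR, Benjamini-Hochberg adjusted p = 0.0174), and -0.42 ± 0.24 without it (adjusted p = 1). Within the second set the difference was -0.60, and within the first -0.19. Leaving out BiTS replicate 2 gave an adjusted p of 0.705 by edgeR's blocked test, and leaving out isotype replicate 4 gave 0.237. DESeq2 with the block gave 0.162, and spike-in scaling with the block 1.

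Odc1 (chr12:17544873-17551502 in mm10, plus strand) had 385 and 334 CPM in BiTS replicates 2 and 1, 459 and 383 CPM in BiTS(mut) replicates 2 and 1 and 560 and 360 CPM in isotype replicates 4 and 1. BiTS replicate 2 lay above isotype replicate 1, so the groups overlapped across sets, while BiTS was the lowest treatment within each set. The log2 fold change in BiTS against isotype was -0.33 ± 0.09 with the block (SE; edgeR, Benjamini-Hochberg adjusted p = 0.0208) and -0.36 ± 0.24 without it (adjusted p = 1). Within the second set it was -0.54, and within the first -0.11. The call did not hold when BiTS replicate 2 (edgeR adjusted p = 0.675) or isotype replicate 4 (0.512) was left out, when either BiTS(mut) library was left out (0.0859 and 0.0857), on the 4 libraries of the 2 groups (0.0819), with DESeq2 and the block (0.0841), or with spike-in scaling and the block (1).

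Myc and Srm did not pass. Myc (chr15:61985391-61990374 in mm10, plus strand) had 427 and 361 CPM in BiTS replicates 2 and 1, 439 and 330 CPM in BiTS(mut) replicates 2 and 1 and 480 and 360 CPM in isotype replicates 4 and 1. The treatments overlapped, while every second-set value lay above every first-set value. Its log2 fold change in BiTS against isotype was -0.08 ± 0.08 with the block (edgeR adjusted p = 0.709, 95% interval -0.247 to 0.0831). Srm, spermidine synthase (chr4:148591503-148594993 in mm10, plus strand), had 122 and 85.2 CPM in BiTS replicates 2 and 1, 145 and 80.7 CPM in BiTS(mut) replicates 2 and 1 and 160 and 75.9 CPM in isotype replicates 4 and 1. BiTS was lowest in the second set and highest in the first, with a blocked value of -0.12 ± 0.09 (edgeR adjusted p = 0.62).

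**Figure D2:**
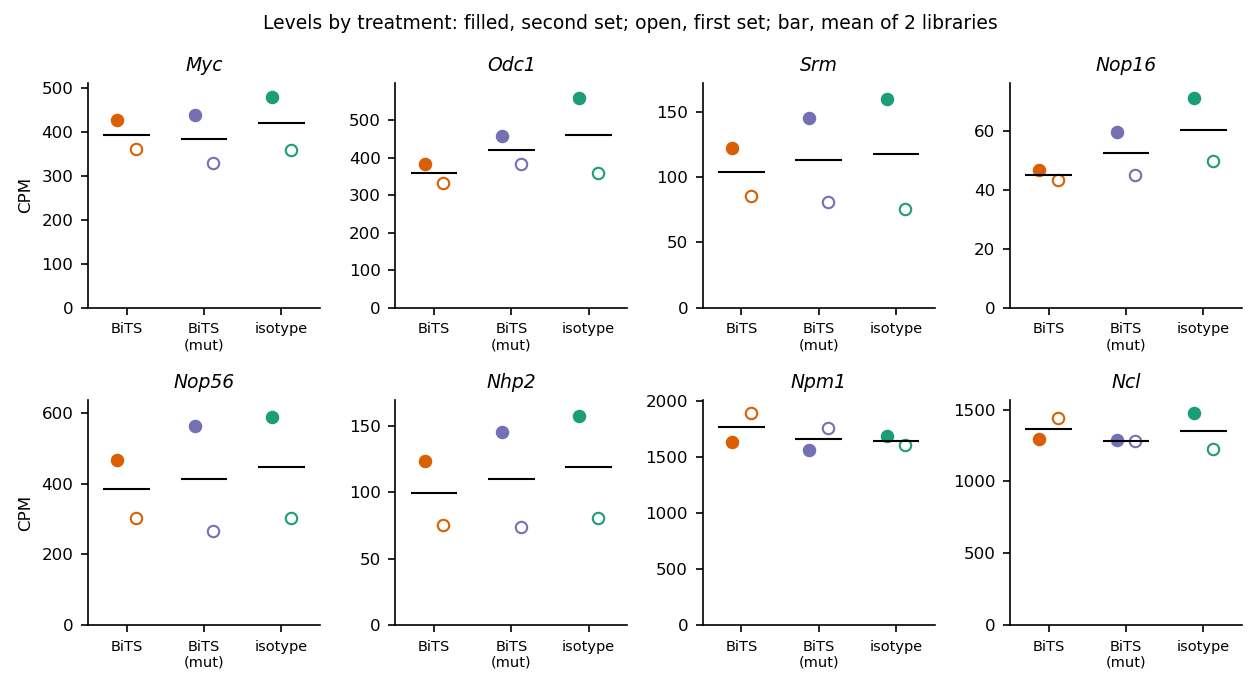
Each panel is 1 gene, with CPM on the vertical axis from 0 and the treatments BiTS, BiTS(mut) and isotype from left to right. Filled points are second-set libraries, open points first-set libraries, and bars the mean of 2 libraries. Nop56 and Nhp2 have every filled point above every open one, and Npm1 and Ncl do not.

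The next 4 members by p were Ebna1bp2, Nip7, Rrp9 and Nolc1, and none passed. Ebna1bp2, a large subunit assembly factor, was at -0.28 ± 0.09 in BiTS against isotype with the block (edgeR adjusted p = 0.0599). Nip7, also of the large subunit, was at -0.30 ± 0.10 (edgeR adjusted p = 0.0994). Rrp9, a protein of the U3 snoRNP that starts small subunit processing, was at -0.29 ± 0.10 (edgeR adjusted p = 0.108), and Nolc1, a chaperone of snoRNPs, at -0.27 ± 0.09 (edgeR adjusted p = 0.119). All 4 were lower in BiTS in both sets, by more in the second.

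As a list, the 46 members had a median log2 fold change in BiTS against isotype of -0.136 with the block, with 37 negative, beside -0.00472 over all genes tested. The size of this median changed with single libraries. Leaving out BiTS replicate 2 brought it to -0.0011 with the block, with 23 members on each side of the median of all genes, and leaving out isotype replicate 4 to -0.0487. It was -0.226 when BiTS replicate 1 was left out and -0.216 for isotype replicate 1. Without the block it was -0.171. Leaving out a library there leaves its group in a single set while the other group keeps both, so such values also carry the set difference. In that fit the median was 0.129, with 36 members above the median of all genes, when isotype replicate 4 was left out. Also unblocked, it was -0.0326 without BiTS replicate 1, -0.265 without BiTS replicate 2 and -0.357 without isotype replicate 1. The median of the box H/ACA group, which counts the chaperone Nolc1, was -0.18, of large subunit factors -0.211 and of RNA polymerase I genes -0.121. It was -0.0669 for small subunit factors, -0.0573 for box C/D proteins and 0.00212 for the multifunctional nucleolar proteins. The within-set medians differed: in the second set it was -0.253, with 44 of 46 members lower in BiTS beside 49.59% of all genes, and in the first set 0.00136, with 23 of 46 lower beside 50.16%. With 1 library a treatment in each set, the difference between the sets in this contrast could not be tested. Markers moved in the same comparison. With the block, 4 of 10 T cell markers rose and 8 of 17 dendritic cell markers fell, as did 3 of 5 features that collect ribosomal RNA reads, whose sum was highest, at 5128.1 CPM, in isotype replicate 4. Dendritic cell markers summed to 1515.5 and 2488.2 CPM in BiTS replicates 2 and 1 and 1613.5 and 3002.8 CPM in isotype replicates 4 and 1, and the T cell markers, in the same libraries, to 2544.6 and 2323.3 CPM in BiTS and 2135.5 and 1850.2 CPM in isotype. Their part in the members' values was not tested.

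**Figure D3:**
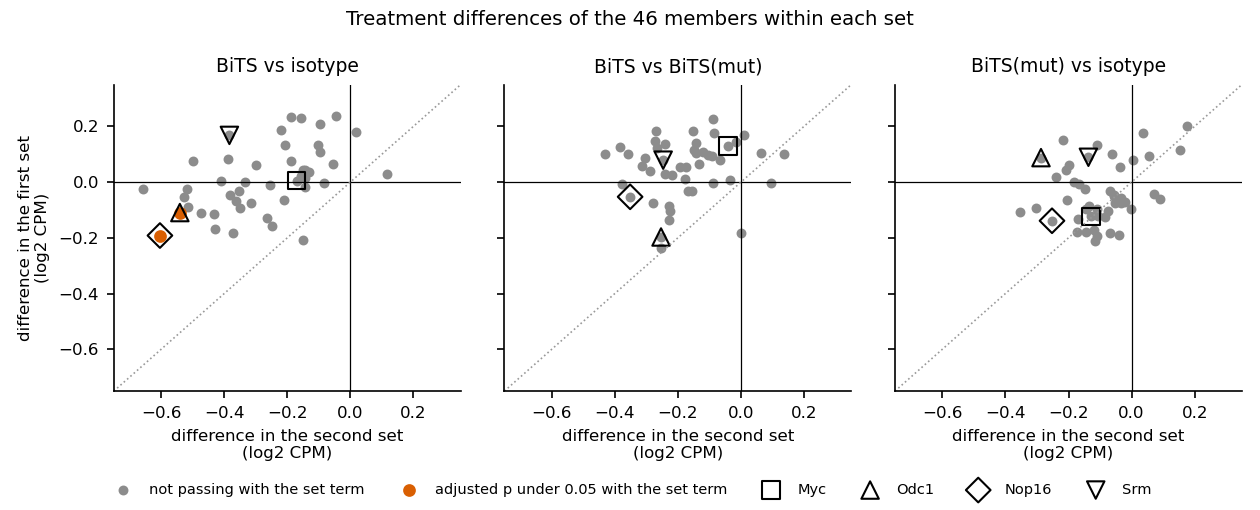
Each point is 1 of the 46 members, in 3 panels for the 3 treatment comparisons. The horizontal axis is the difference within the second set and the vertical axis that within the first, both in log2 CPM, and the dotted line marks equal values. In BiTS against isotype 44 points lie left of 0, while 23 lie below 0, and the 2 filled orange points are Nop16 and Odc1.

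BiTS against BiTS(mut) asks whether the change in BiTS(mut) alters the response. No member passed edgeR's test without the block (0 of 46, and 0% of all genes, with 0 members and 76 genes at an unadjusted p under 0.05) or with it (0 of 46, beside 0.972% of all genes). With the block 3 members and 1183 genes had an unadjusted p under 0.05. DESeq2 and limma-voom called 0 members with and without the block. Odc1 had the lowest p, with a log2 fold change of -0.22 ± 0.09 (edgeR adjusted p = 0.336). It was -0.25 within the second set and -0.20 within the first. In blocked fits on the 4 libraries of these groups alone, or without isotype replicate 1 or 4, it passed, with adjusted p-values of 0.00711, 0.016 and 0.00851 by edgeR. Wdr12 was at -0.25 ± 0.11 (edgeR adjusted p = 0.448) and Rrp12, which in yeast serves the export of both subunits, at -0.18 ± 0.09 (0.538). Nop16 was at -0.20 ± 0.10, Srm at -0.08 ± 0.09 and Myc at 0.04 ± 0.08. The members' median was -0.0643, with 36 of 46 negative, beside 0.000543 over all genes. Leaving out the second-set library of either treatment turned its sign: it was 0.0879, with 37 of 46 members above the median of all genes, without BiTS replicate 2, and 0.00161 without BiTS(mut) replicate 2. It was -0.174 without BiTS replicate 1 and -0.107 without BiTS(mut) replicate 1. Without the block it was -0.0891. Left-out fits without the block also carry the set difference. In them the median was 0.0356 without BiTS replicate 1 and 0.165 without BiTS(mut) replicate 2. It was -0.191 without BiTS replicate 2 and -0.281 without BiTS(mut) replicate 1. With all libraries it was -0.176 within the second set, where 42 members were lower in BiTS, and 0.0781 within the first, where 13 were. With the block 7 of 17 dendritic cell markers fell in BiTS against BiTS(mut), and their part in these values was not tested. Scaled to spike-in transcripts with the block, this median was 0.116, below the 0.178 of all genes.

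BiTS(mut) against isotype gave no member by edgeR without the block (0 of 46, and 0% of all genes, with 0 members and 41 genes at an unadjusted p under 0.05) or with it (0 of 46, beside 0.05% of all genes, with 2 members and 620 genes at an unadjusted p under 0.05). DESeq2 and limma-voom also called 0 members in either fit. Rrp12 was at 0.19 ± 0.09 and Gar1, a core box H/ACA protein, at -0.21 ± 0.10, both with an adjusted p of 1 by edgeR. Myc was at -0.13 ± 0.08, with -0.13 within the second set and -0.12 within the first. Odc1 was at -0.11 ± 0.09, with -0.29 within the second set and 0.09 within the first. Nop16 was at -0.20 ± 0.10 and Srm at -0.04 ± 0.09. The members' median was -0.0883, with 36 of 46 negative, beside 0.000157 over all genes, and it was -0.109 within the second set and -0.0624 within the first. It was -0.0015 without isotype replicate 4, -0.039 without BiTS(mut) replicate 1 and -0.176 without isotype replicate 1. Without the block it was -0.0909. Left-out fits without the block again carry the set difference too. In them the median was 0.196, with 42 of 46 members above the median of all genes, without isotype replicate 4. It was 0.138 without BiTS(mut) replicate 1. Unblocked, it was -0.292 without isotype replicate 1 and -0.303 without BiTS(mut) replicate 2. Of features that collect ribosomal RNA reads 3 of 5 fell, and their part was not tested. The 3 treatment comparisons share libraries, so their values are not independent of each other. Within the second set 35 of 46 members ran in the order BiTS below BiTS(mut) below isotype, beside 21.97% of all genes, and within the first set 8 did, beside 20.62%.

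The larger difference lay between the sets. In the second set against the first, 35 of 46 members rose and none fell by edgeR's quasi-likelihood test with treatment in the model, while under scaling to spike-in transcripts none rose and Npm1, Polr1c and Noc3l fell. The 35 are 76.1% of the members, beside 25.9% of all genes higher, 26.9% lower and 52.7% in either direction. For 32 of 46 members (69.6%) every second-set library lay above every first-set library, beside 27.9% of all genes, and for no member did every one lie below, beside 27.8%. The members' median log2 fold change was 0.358 and ranged from -0.105 to 0.89, beside 0.0208 over all genes. Spike-in transcripts took 5.14% to 7.54% of counts in the second set and 3.36% to 4.03% in the first. Scaling to them moved the median of all genes to -0.743 and that of the members to -0.403. A change of scaling shifts the set difference of every gene by nearly the same amount. The members' place relative to all genes is therefore kept by construction and is no second support. They stood 0.339 higher than all genes, beside 0.338 by the main scaling, with 41 of 46 above the median of all genes. How much spike-in RNA was added per cell is not given in the sources used here.

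By the main scaling the 2 groups of snoRNP proteins had the highest medians among the role groups, an order that a common shift of all genes leaves in place. All 3 box C/D proteins rose, with a median of 0.589. Nop56, a scaffold protein of the box C/D snoRNPs that guide methylation of ribosomal RNA (chr2:130274430-130279313 in mm10, plus strand), had 468, 563 and 590 CPM in the second set (BiTS, BiTS(mut), isotype) and 303, 267 and 303 CPM in the first. The sets were far apart and did not overlap. Its log2 fold change was 0.89 ± 0.07 (SE; edgeR, Benjamini-Hochberg adjusted p = 9.84e-15), and 0.127 with spike-in scaling, where it did not pass. A group of 5 snoRNA genes lies within Nop56, and 8 members hold 22 such genes between them. The part of snoRNA reads in these counts was not tested. Its partner Nop58 was at 0.59 ± 0.07, and Fbl, the methyltransferase fibrillarin, at 0.44 ± 0.07, or -0.326 with spike-in scaling.

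All 5 genes of the box H/ACA group, which counts the snoRNP chaperone Nolc1 beside the core proteins, rose by the main scaling. Their median of 0.715 is the value of Nolc1. Nhp2, which binds the guide RNA (chr11:51619735-51623714 in mm10, plus strand), had 123, 146 and 157 CPM in the second set (BiTS, BiTS(mut), isotype) and 75.2, 73.8 and 80.4 CPM in the first. Its lowest second-set value, in BiTS, was still above every first-set value. Its log2 fold change was 0.89 ± 0.07 (edgeR adjusted p = 1.38e-14), and 0.124 with spike-in scaling. Dkc1, the pseudouridine synthase dyskerin, was at 0.79 ± 0.07 and Nolc1 at 0.72 ± 0.08. Gar1 was at 0.54 ± 0.08 and Nop10, the smallest core protein, at 0.36 ± 0.10, the lowest of the group. With spike-in scaling Dkc1 was at 0.0303, Nolc1 at -0.0502 and Nop10 at -0.401.

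Myc and both polyamine enzymes rose by the main scaling, while Myc and Odc1 had the opposite sign with spike-in scaling. The Myc values given above, 427, 439 and 480 CPM in the second set and 361, 330 and 360 CPM in the first (BiTS, BiTS(mut), isotype), did not overlap between sets. The log2 fold change was 0.36 ± 0.07 (edgeR adjusted p = 1.42e-05), close to the members' median of 0.358, and -0.405 with spike-in scaling, beside their median of -0.403. Srm was at 0.81 ± 0.08 (edgeR adjusted p = 1.59e-12) and 0.0507 with spike-in scaling. Odc1 was at 0.37 ± 0.07 (edgeR adjusted p = 2.56e-05), and -0.393 with spike-in scaling. Its set difference was 0.20 in BiTS, 0.26 in BiTS(mut) and 0.64 in isotype.

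Of the 6 RNA polymerase I genes 4 rose by the main scaling. Polr1b, the subunit next in size to the largest, had 68.5, 85.2 and 92.5 CPM in the second set (BiTS, BiTS(mut), isotype) and 49.6, 47.7 and 53.7 CPM in the first, without overlap. Its log2 fold change was 0.70 ± 0.08 (edgeR adjusted p = 3.11e-10), and -0.0674 with spike-in scaling. Polr1e, a subunit that works with initiation factors, was at 0.47 ± 0.10, the architectural factor Ubtf at 0.38 ± 0.07 and the catalytic subunit Polr1a at 0.36 ± 0.07. Rrn3 was at -0.03 ± 0.08 and Polr1c, a subunit shared with RNA polymerase III, at -0.10 ± 0.07, and neither passed. Polr1c had 95.6, 109 and 107 CPM in the second set (BiTS, BiTS(mut), isotype) and 119, 115 and 101 CPM in the first. These values overlapped, and without either isotype library Polr1c fell, with an edgeR adjusted p of 0.0185 without replicate 1 and 0.0157 without replicate 4.

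Among the 13 small subunit factors 9 rose by the main scaling, and Pno1, Utp20, Nob1 and Ltv1 did not pass. Rrp9 led with 0.67 ± 0.08 (edgeR adjusted p = 2.1e-09), and -0.0942 with spike-in scaling. It had 61.2, 78.5 and 85 CPM in the second set (BiTS, BiTS(mut), isotype) and 46.6, 43.4 and 50.3 CPM in the first, with BiTS replicate 2 nearest to the first set. The processome proteins Heatr1 (0.30 ± 0.08), Wdr43 (0.33 ± 0.07), Nop14 (0.28 ± 0.08) and Noc4l (0.37 ± 0.08) lay close together, as did Rcl1 (0.29 ± 0.10), a factor of early cuts in yeast, and Rrp12 (0.36 ± 0.07), Bysl (0.37 ± 0.10) and Tsr1 (0.30 ± 0.08), which act in later steps. Of the exons of Tsr1, 32.32% overlap the antisense gene Srr, and without a stated strand setting reads of the pair cannot be told apart. The processome factor Utp20 was at 0.16 ± 0.09. The late-acting Pno1 (0.18 ± 0.10), Nob1, the nuclease of the last cut of small subunit rRNA (0.13 ± 0.07), and Ltv1, which serves export of the small subunit (0.08 ± 0.09), were the other 3 below the threshold. Ltv1 had the lowest value, with 43.5, 40.7 and 48.1 CPM in the second set (BiTS, BiTS(mut), isotype) and 41.8, 41.9 and 41.3 CPM in the first. Its sets overlapped, and with spike-in scaling it was at -0.681. Leaving out either BiTS(mut) library ended the calls of Heatr1, Nop14 and Rcl1 here and of Nle1 below, either isotype library those of Bysl and Rcl1, and DESeq2 that of Rcl1.

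Of 12 large subunit factors 10 rose by the main scaling. Ebna1bp2 had 121, 142 and 156 CPM in the second set (BiTS, BiTS(mut), isotype) and 75.6, 80.3 and 85.9 CPM in the first, in the same treatment order in both. Its log2 fold change was 0.79 ± 0.07 (edgeR adjusted p = 2.95e-13), and 0.026 with spike-in scaling. The PeBoW complex split: Bop1 was at 0.74 ± 0.08 and Wdr12 at 0.36 ± 0.09, but Pes1 at 0.00 ± 0.07 (edgeR adjusted p = 0.96). With spike-in scaling Bop1 was at -0.0256. Noc2l and Noc3l, whose yeast counterparts form a complex that escorts the large subunit precursor, also stood apart, at 0.71 ± 0.07 and -0.10 ± 0.11, with Noc2l at -0.0491 under spike-in scaling. In Noc2l 20.86% of the exon length overlaps the antisense gene Samd11. Of other assembly factors Nop2 was at 0.68 ± 0.07, Rrp1b at 0.53 ± 0.07, the nucleostemin gene Gnl3 at 0.35 ± 0.07, Nop16 at 0.35 ± 0.08, Nle1, the gene of Notchless, at 0.32 ± 0.08 and Nip7 at 0.31 ± 0.08. Noc3l had 18.9, 24.5 and 27 CPM in the second set (BiTS, BiTS(mut), isotype) and 24.5, 24.6 and 26.1 CPM in the first. Its lowest value was in BiTS replicate 2, and without either BiTS library its set difference was near 0.

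Of the 4 multifunctional nucleolar proteins, labelled abundant nucleolar in the figures, Mybbp1a rose by the main scaling (0.42 ± 0.07, edgeR adjusted p = 7.94e-07, and -0.341 with spike-in scaling). The helicase Ddx21 (0.06 ± 0.07), Ncl (0.04 ± 0.07) and Npm1 (-0.11 ± 0.07) did not pass. The label does not describe the level of all 4, since Ddx21 and Mybbp1a had 58.74 and 58.69 RPKM, beside 94.01 RPKM for Nop56, which rose. Npm1 (chr11:33152287-33163206 in mm10, minus strand) had 1638, 1566 and 1691 CPM in the second set (BiTS, BiTS(mut), isotype) and 1898, 1766 and 1610 CPM in the first. The sets overlapped, and the highest value was in BiTS replicate 1. Ncl (chr1:86344719-86359400 in mm10, minus strand) had 1297, 1288 and 1478 CPM in the second set (BiTS, BiTS(mut), isotype) and 1439, 1279 and 1225 CPM in the first, again with overlap. Without isotype replicate 1 Npm1 fell, with a log2 fold change of -0.20 ± 0.05 (edgeR adjusted p = 0.000287), and without replicate 4 it also fell (0.00017). With library totals alone it was at -0.155 ± 0.063 (edgeR adjusted p = 0.0376).

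**Figure D4:**
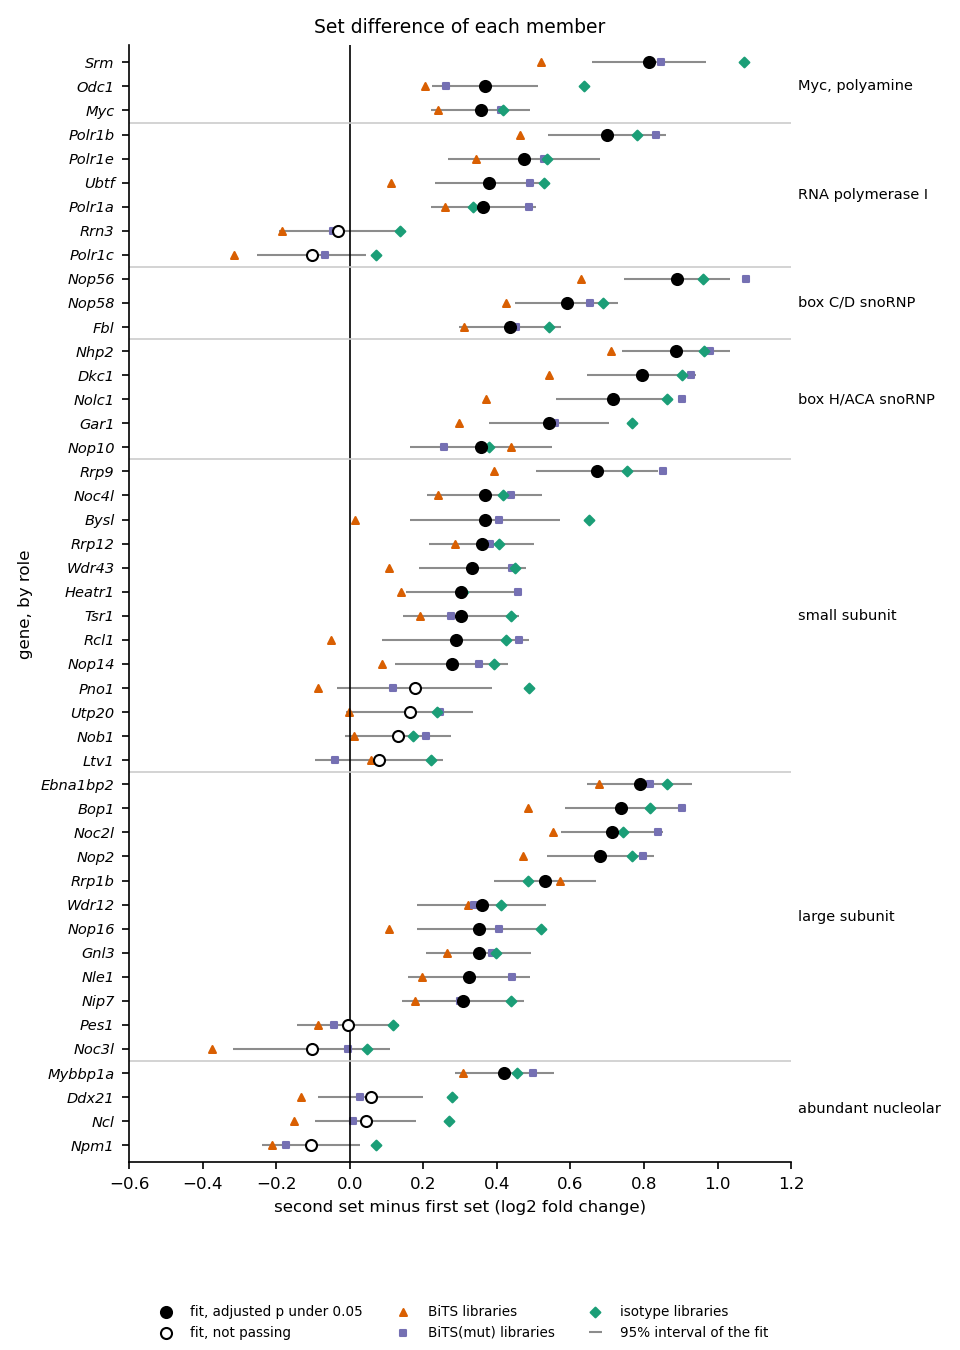
Each row is 1 member, grouped by role, with the log2 fold change of the second set over the first on the horizontal axis. Circles are the fit, filled where the adjusted p is under 0.05, with its 95% interval, and the small coloured symbols are the difference within each treatment. The 35 filled circles all lie right of 0, and the isotype symbol is right of 0 for all 46 members. With spike-in scaling the median of all genes moves to -0.743 and none of the 35 passes as higher.

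The set difference was not the same size in every treatment. In isotype all 46 members were higher in the second set, with a median of 0.444, in BiTS(mut) 40 were, with a median of 0.441, and in BiTS 36 were, with a median of 0.24. Beside these, between 50.73% and 50.86% of all genes were higher. The difference between treatments rests on 1 library a set and could not be tested. Other measures moved with the sets. Dendritic cell markers fell in the second set in 15 of 17 cases (median -1.0, with sums of 1515.5 to 1685 CPM in the second set and 2488.2 to 3024.2 CPM in the first), and 4 of 5 macrophage and monocyte markers fell (median -1.50, with sums of 37.01 to 43.66 CPM and 57.46 to 64.12 CPM). Of T cell markers 5 of 10 rose (median 0.197, with sums of 2135.5 to 2544.6 CPM in the second set and 1850.2 to 2323.3 CPM in the first), and of proliferation genes 5 of 10 (median 0.175). All 5 tested features that collect ribosomal RNA reads rose (median 0.864). Their part in the members' set difference was not tested.

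E-boxes were found among members that passed and members that did not. Of the 10 members with CACGTG in a promoter window 5 rose between the sets, with a median of 0.239 over the 10. Of the 30 without it 25 rose, with a median of 0.367. Both counts stand beside 25.9% of all genes higher. All genes were not split by the motif, and the difference between members with and without it was not tested. Of the promoters printed above, those of Nop2, Mybbp1a and Wdr43 belong to members that rose by the main scaling and that of Rrn3, with 2 copies, to one that did not pass, while the windows of Nop56 and Nhp2 hold none. A match is a description of the letters in this window.

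The other genes of the pathway were taken from a list of 145, of which 144 were found in the count tables and 143 were tested. Between the sets 76 rose and 16 fell by the main scaling, beside 25.9% of all genes higher and 26.9% lower, and their median was 0.235 beside 0.0208 over all genes. Of other large subunit factors 29 of 42 rose, of other RNA polymerase I genes 6 of 9, of other small subunit factors 19 of 37, of other snoRNP genes 5 of 11, of exosome genes 6 of 12 and of other MYC targets 6 of 12. Each of these counts stands beside the same 25.9% of all genes, and none was tested as a group. Cd3eap, an RNA polymerase I subunit, had 42.4, 48.8 and 44.3 CPM in the second set (BiTS, BiTS(mut), isotype) and 19.997, 18.8 and 21.0 CPM in the first. The sets were more than 2-fold apart, with a log2 fold change of 1.18 ± 0.10 (edgeR adjusted p = 1.87e-14), and 0.417 with spike-in scaling. Ppan, of large subunit assembly, was at 0.98 ± 0.07 and 0.22 with spike-in scaling. Wdr74, a large subunit maturation factor, was at 0.91 ± 0.16, but 90.71% of its exon length overlaps another gene on the same strand, so its count is uncertain.

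Of the 12 genes of MYC's network 2 rose and 8 fell between the sets by the main scaling, beside 25.9% of all genes higher and 26.9% lower, and their median was -0.379. The list was not tested as a group. Of the dendritic cell markers 15 of 17 fell in the same comparison, and their part in these values was not tested. Mxd1, a MYC antagonist, had 40, 43.1 and 38.2 CPM in the second set (BiTS, BiTS(mut), isotype) and 78, 108.1 and 102.5 CPM in the first. No second-set value came near a first-set value, and the log2 fold change was -1.24 ± 0.08 (edgeR adjusted p = 1.61e-17), and -2.0 with spike-in scaling. The antagonist Mxi1 was at -1.06 ± 0.07, and the common partner Max at -0.33 ± 0.07. The 2 that rose by the main scaling were Mxd3, at 0.84 ± 0.12, and Zbtb17, the MYC-interacting factor MIZ1, at 0.20 ± 0.07. In polyamine turnover Smox, spermine oxidase, had 46.5, 49.1 and 53.8 CPM in the second set (BiTS, BiTS(mut), isotype) and 117.8, 122.6 and 110.4 CPM in the first, a log2 fold change of -1.23 ± 0.08. Sat1, the acetyltransferase that starts polyamine breakdown, was at -0.59 ± 0.07. The other polyamine genes of the list did not share this fall. Paox had 16.3, 20.3 and 18.6 CPM in the second set (BiTS, BiTS(mut), isotype) and 13.9, 12.9 and 12.3 CPM in the first. Sms and Oaz1 also had every second-set value above every first-set value, while the sets overlapped for Amd1, Oaz2 and Azin1.

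One gene of the pathway list passed in a treatment comparison. Mxd4, another MAX-binding antagonist of MYC (chr5:34173883-34187720 in mm10, minus strand), had 25.8 and 31.1 CPM in BiTS replicates 2 and 1, 21.2 and 28.5 CPM in BiTS(mut) replicates 2 and 1 and 14.3 and 22.3 CPM in isotype replicates 4 and 1. Both BiTS values lay above both isotype values. It rose in BiTS against isotype with the block, with a log2 fold change of 0.64 ± 0.13 (edgeR adjusted p = 0.00163). The value was 0.84 within the second set and 0.48 within the first. Without the block it was 0.63 ± 0.29 (edgeR adjusted p = 1). Leaving out BiTS replicate 2 gave an adjusted p of 0.098 by edgeR's blocked test, and spike-in scaling gave 1. In BiTS against BiTS(mut) Mxd4 was at 0.20 ± 0.13 and in BiTS(mut) against isotype at 0.44 ± 0.13 (edgeR adjusted p = 0.763 and 0.572 with the block).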

How the data were processed

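RNA-seq counts of 6 libraries, 2 per treatment, were used. The authors deposited raw counts per gene, 1 table per library. Per the submitters' processing notes, the build was mm10 and DESeq2 was a tool. Which aligner, counter, annotation release or strand setting was used is not stated in the labels or file headers. Symbols came from GENCODE M21, which held 49412 of 49671 identifiers (the other 259 held 0.0133% of counts), and 92 ERCC spike-in transcripts were kept out of totals and scaling. The span of 34 of the 46 members was that of M21, and 18 members share exon bases with another gene, 2 of them over 20%. Coordinates are those of the tables.

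After TMM scaling and filterByExpr, edgeR's quasi-likelihood test was run two-sided in R 4.3.3 (edgeR 4.0.16, with DESeq2 1.42.0 and limma 3.58.1 for alternatives), with Benjamini-Hochberg adjustment over 13996 genes and a threshold of 0.05. The main fit for treatments used all 6 libraries with 1 coefficient per group. The same fit with the title-number set as a block is given beside it because it changes calls. The set difference comes from the blocked fit. The pairing comes from the titles, and within a set the libraries' deviations from their treatment means had correlations of 0.663, 0.74 and 0.728 over these genes. In the blocked fit each gene brought 2 residual degrees of freedom, with 45.95 shared over genes, and without it 3 and 3.138. CPM use a prior count of 2 in the log2 values shown in plots and within sets. A count of 3, the limit that a count of 0 allows, was 0.197 to 0.277 CPM. Between libraries, chi-square per degree of freedom was at least 4.229, so none was counted as a repeat of another. The steps were also run on simulated data, with the same dispersion for all genes and with means that differ by set. That run cannot show whether the block or the shared spread suits these libraries.

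The members, the lists and the tests were chosen with earlier results of these data known. Named genes in a treatment comparison were Myc, Odc1, Srm, Nop16, members that passed in either fit, and those with the smallest p up to 8. Between the sets they were Myc, Odc1, Srm, the 8 largest changes each way among members that passed, and the highest and lowest member of each role. Of other pathway genes they were those that passed between treatments and the 3 largest changes each way between the sets. Every other gene named was added to account for a role group, an overlap or a leave-one-out value after its value was seen. Alternatives were DESeq2, limma-voom, RLE, library totals, spike-in scaling, no low-count filter, a filter at 5 CPM in 2 or more libraries, the 4 compared libraries alone, rRNA-like features left out, no treatment term, and each library left out in turn.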

Additional observations from a re-analysis of the deposited data

Results flagged for a closer look

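The treatment contrasts of several members had opposite signs in the 2 sets. With 1 library per treatment in each set, none of these differences between sets was tested. Values are the difference in the second set minus that in the first, in log2 CPM.

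In BiTS against isotype the median of the 46 members differed between the sets by -0.254 (-0.253 in the second set and 0.00136 in the first), Myc by -0.176 (-0.17 in the second set and 0.00533 in the first) and Srm by -0.551 (-0.384 in the second set and 0.167 in the first). In BiTS against BiTS(mut) the member median differed by -0.254 (-0.176 in the second set and 0.078 in the first), Myc by -0.17 (-0.0415 in the second set and 0.129 in the first), Srm by -0.325 (-0.247 in the second set and 0.0785 in the first) and Nolc1 by -0.533 (-0.432 in the second set and 0.101 in the first). In BiTS(mut) against isotype Odc1 differed by -0.375 (-0.287 in the second set and 0.0876 in the first) and Srm by -0.226 (-0.137 in the second set and 0.0889 in the first).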

How the results depend on the processing

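With the replicate block, the count of members that passed in BiTS against isotype was 2 in place of 0, or 4.35% beside 3.4% of all genes. It was also 2 with the block and limma-voom, RLE size factors, no low-count filter, a filter at 5 CPM or rRNA-like features left out, 3 with library totals (adding Ebna1bp2), 1 on the 4 libraries compared (Nop16), and 0 with DESeq2 or spike-in scaling. Leaving out 1 library gave 0 to 11 members: with the block, 11 without isotype replicate 1, 8 without BiTS replicate 1, 1 without isotype replicate 4 (Npm1, higher, 0.23 ± 0.07), 1 without either BiTS(mut) library (Nop16) and 0 without BiTS replicate 2. Counts from fits with a library left out are given without the share of all genes that passed in the same fit. They therefore do not show whether the members differed from all genes in those fits. For BiTS against BiTS(mut) the block alone gave 0 as without it, and 1 on the 4 libraries compared (Odc1). For BiTS(mut) against isotype the block gave 0. Between the sets 34 to 36 members passed under the other alternatives, 31 to 36 with a library left out and 3 with spike-in scaling, all 3 lower; the cause was not tested.

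With spike-in scaling 36 of 46 members turned sign in the set difference, among them, of the genes the naming rule chose for it, Bop1 (-0.0256), Fbl (-0.326), Ltv1 (-0.681), Mybbp1a (-0.341), Myc (-0.405), Noc2l (-0.0491), Nolc1 (-0.0502), Nop10 (-0.401), Odc1 (-0.393), Polr1b (-0.0674) and Rrp9 (-0.0942). In BiTS against BiTS(mut) 30 of 46 turned without the block, among them, of the genes named there, Ebna1bp2 (0.0229, and 0.0211 with the block), Nolc1 (0.0189 and 0.0212) and Srm (0.0948 and 0.092). With a library left out, in fits with and without the block, BiTS against isotype ran from -0.679 to 0.192 for Ebna1bp2, -0.286 to 0.13 for Myc, -0.691 to 0.17 for Nolc1, -0.66 to 0.0953 for Rrp9 and -0.622 to 0.449 for Srm. BiTS against BiTS(mut) ran from -0.549 to 0.289 for Ebna1bp2, -0.149 to 0.252 for Myc, -0.598 to 0.296 for Nolc1, -0.359 to 0.0128 for Rrp12 and -0.477 to 0.36 for Srm. BiTS(mut) against isotype ran from -0.549 to 0.105 for Bysl, -0.56 to 0.21 for Gar1, -0.344 to 0.0946 for Myc, -0.446 to 0.0755 for Nop16, -0.415 to 0.222 for Odc1, -0.0146 to 0.401 for Rrp12, -0.541 to 0.57 for Srm and -0.418 to 0.13 for Ubtf. In these treatment ranges, an unblocked fit that leaves out a library of a compared group also carries the set difference. The set difference itself ran from -0.00125 to 0.138 for Ltv1 and from -0.187 to 0.0172 for Noc3l. With the block, Myc was at -0.0382 in BiTS against BiTS(mut) without BiTS replicate 1 and at 0.00348 in BiTS against isotype without BiTS replicate 2. Odc1 was at 0.103 in BiTS(mut) against isotype without isotype replicate 4, and Nolc1 at 0.092 in BiTS against BiTS(mut) without BiTS replicate 2. Srm was at 0.136 in BiTS against BiTS(mut) and 0.105 in BiTS against isotype without BiTS replicate 2, and at 0.0861 in BiTS against isotype and 0.175 in BiTS(mut) against isotype without isotype replicate 4.

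With 2 libraries per treatment, calls between treatments rest on the block and on the spread shared over genes. No member was near the limit of depth: the lowest value was 18.9 CPM.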
